A study of Homo sapiens with 6 samples.

Results

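The genes described here encode proteins of the mitochondrial ribosome. They were chosen by their symbols alone: every transcript cluster (a set of array probes for one transcribed locus) whose annotation gave exactly 1 symbol of the form MRPL or MRPS followed by a number, with no pseudogenes. This gave 75 of 33616 genes on the array, 48 with MRPL symbols (large subunit) and 27 with MRPS symbols (small subunit). Each gene was represented by its cluster with the highest mean, and MRPL23 was the only member with a further cluster. Total RNA came from MHH-cALL4, a cultured human leukaemia of B-cell precursors that is of the Ph-like kind (it resembles Philadelphia chromosome-positive disease without that chromosome). The cells were grown in RPMI with serum and antibiotics. One group received the vehicle DMSO and the other 1 µM ruxolitinib, which blocks JAK1 and JAK2, and both were taken at 12 h, with 3 arrays each. MHH-cALL5 stands in the titles and source names of all 3 ruxolitinib arrays, while the cell line field of the same arrays reads MHH-cALL4, so the labels do not settle that both groups are one line. The comparison asked how transcript levels differ when JAK signalling is blocked.

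The mitochondrial ribosome translates the few mRNAs of the mitochondrial genome, which encode core subunits of the respiratory chain and ATP synthase. Its RNAs come from the mitochondrial genome, but all its proteins are encoded in the nucleus, made in the cytosol and imported. Many have counterparts in bacterial ribosomes, and others are found only in mitochondria. The letter of a symbol names the subunit in which the protein was first placed. In the structure of the human particle MRPS30 and MRPS18A lie in the large subunit, so that by structure there were 50 large and 25 small subunit genes.

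The arrays were alike, with correlations of 0.990 to 0.994 within groups and 0.987 to 0.993 between groups over all genes. DMSO replicate 1 and ruxolitinib replicate 3 had the highest mean signal over 215 small RNA genes (rRNA, snRNA and snoRNA), with log2 means of 8.48 and 8.45, where the other 4 arrays had 7.94 to 8.17. The B-lineage genes CD79A, CD79B, EBF1, VPREB1, DNTT and CRLF2 were bright on all arrays, and 0 of 9 measured markers of such leukaemia passed the test between groups (limma). Of these 9, 8 had a change above 0, with a median of 0.11. At an unadjusted p under 0.05 (limma) 2 were higher and 0 lower, where 2.68% of all genes were higher. In 2 all ruxolitinib arrays lay above all DMSO arrays, as in 5.14% of all genes. The 4 T-cell markers CD2, CD3D, CD3E and CD3G stood between 3.85 and 6.24 and did not pass. CD2 had groups that did not overlap, at -0.51 ± 0.18 (adjusted p = 0.341, limma; lower at an unadjusted p under 0.05), and CD3E had a change of 0.45 ± 0.24 with overlap.

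Nearly all mitochondrial ribosomal protein genes were lower with ruxolitinib, each by a modest amount. The log2 change was below 0 for 72 of the 75 genes, and for 65 after quantile normalization, after cyclic loess between arrays or without DMSO replicate 3. Over all genes 53.4% were below 0, and among protein-coding genes above the median level, a range that holds all 75 members, 64.6%. The median change of the members was -0.48 on the log2 scale (quartiles -0.62 and -0.31), a 1.40-fold lower level, against -0.02 for all genes and -0.11 for protein-coding genes above the median level. A total of 23 members were at least 1.5-fold lower and 2 were at least 2-fold lower. In these bulk samples, fewer cells that express a gene and less of its RNA per cell cannot be told apart.

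At an adjusted p under 0.05 over all genes (limma), 5 members were lower and 0 higher, and 70 did not pass. Of all genes 1.04% were called lower and 0.101% higher by the same rule, and 2.91% of protein-coding genes above the median level. At an unadjusted p under 0.05, 32 members were lower and 0 higher, where the background was 6.85% lower and 2.68% higher over all genes and 16.1% lower among protein-coding genes above the median level. For 35 members all ruxolitinib arrays lay below all DMSO arrays, and for 0 members above them. Such a separation was seen downward in 9.03% and upward in 5.14% of all genes, and downward in 18.2% of protein-coding genes above the median level. None of the 5 calls was kept in all 6 fits that each leave out 1 array (limma): MRPL15 kept its call in 3 of them, MRPL3 in 1, and MRPS28, MRPS7 and MRPS5 in 0.

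MRPL15, a large subunit protein with a bacterial counterpart, fell the furthest. Its cluster TC0800007653.hg.1 read 9.57, 9.88 and 9.43 on the DMSO arrays and 8.28, 8.53 and 8.68 on the ruxolitinib arrays (log2 signal). The groups did not overlap, and the gap between the lowest DMSO and the highest ruxolitinib array was wider than the spread within either group. The change was -1.13 ± 0.19 on the log2 scale (SE, n = 3 per group; 2.19-fold lower, adjusted p = 0.0176, limma). Leaving out DMSO replicate 2 ended the call (adjusted p = 0.107, limma), as did leaving out ruxolitinib replicate 1 (0.0684) or 2 (0.0991), and so did quantile normalization (0.0589).

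MRPL3, whose bacterial counterpart reaches towards the peptidyl transferase centre, was brighter. Cluster TC0300012445.hg.1 read 12.43, 12.86 and 12.60 with DMSO and 11.72, 11.70 and 11.57 with ruxolitinib. The ruxolitinib arrays lay close together and all below the DMSO arrays. MRPL3 fell by 0.97 ± 0.18 on the log2 scale (SE; adjusted p = 0.0273, limma), a 1.96-fold lower level. MRPL3 still passed after quantile normalization (adjusted p = 0.0439) and cyclic loess (adjusted p = 0.0406, both limma). With 1 array left out it passed without DMSO replicate 1 (adjusted p = 0.0359) and not without any other array (adjusted p up to 0.154).

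The 3 small subunit genes that passed were MRPS28, MRPS7 and MRPS5, and all 3 encode proteins with bacterial counterparts. MRPS5 belongs to the body of the subunit near the mRNA entry and MRPS7 to its head, as their bacterial counterparts do. MRPS7 (cluster TC1700008897.hg.1) read 11.47, 11.85 and 11.60 with DMSO and 10.78, 10.86 and 10.69 with ruxolitinib. MRPS5 (cluster TC0200016706.hg.1) read 9.77, 9.91 and 10.04 with DMSO and 9.01, 9.20 and 8.94 with ruxolitinib. MRPS28 (cluster TC0800012432.hg.1) read 8.97, 9.29 and 9.0 with DMSO and 8.25, 8.07 and 8.32 with ruxolitinib. In none of the 3 genes did the groups overlap. The log2 changes were -0.87 ± 0.18 for MRPS28, -0.86 ± 0.18 for MRPS7 and -0.86 ± 0.18 for MRPS5 (SE), and the adjusted p values lay between 0.0438 and 0.0459 (limma). All 3 calls were lost after quantile normalization and after cyclic loess. RefSeq lists pseudogenes, matched here by symbol, of MRPL15, MRPL3, MRPS7 and MRPS5, as it does for 39 of the 75 members. Signal from such a copy could not be separated here.

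**Figure D1:**
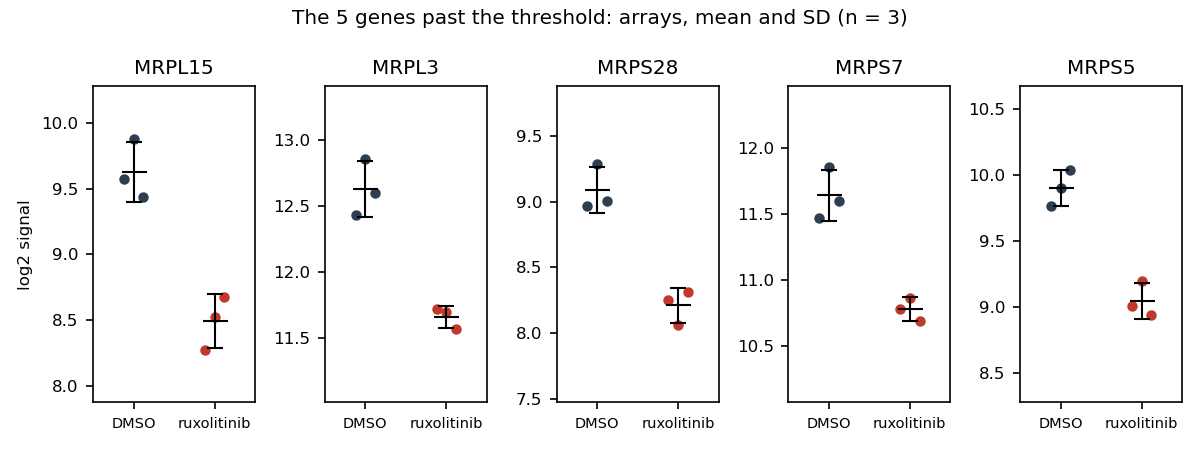
Log2 signal (vertical axis, the same span of 2.4 units in every panel) of the 5 genes past the threshold on 3 DMSO and 3 ruxolitinib arrays; points are arrays, the wide tick is the mean and the bar the SD. In each panel every ruxolitinib array lies below every DMSO array.

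MRPL32 stood just outside the threshold (log2 change -0.84 ± 0.18, adjusted p = 0.0502, limma), and MRPS23 next to it (-0.93 ± 0.20, adjusted p = 0.0528). MRPL32 is known as a protein whose cleavage by the inner membrane m-AAA protease precedes its assembly. MRPL32 read 11.36, 11.11 and 11.43 with DMSO and 10.48, 10.57 and 10.32 with ruxolitinib, with no overlap. In all 7 members had an adjusted p between 0.05 and 0.1, the others being MRPS15 (-0.95), MRPS25 (-0.78), MRPS18A (-0.75), MRPL4 (-0.95) and MRPS35 (-0.79). MRPL24, whose bacterial counterpart lies at the exit of the polypeptide tunnel, had the second lowest change, -1.0 ± 0.26, and did not pass (adjusted p = 0.128, limma). Its arrays read 9.42, 8.95 and 9.68 with DMSO and 8.86, 8.29 and 7.90 with ruxolitinib, a wider spread than in MRPL15.

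**Figure D2:**
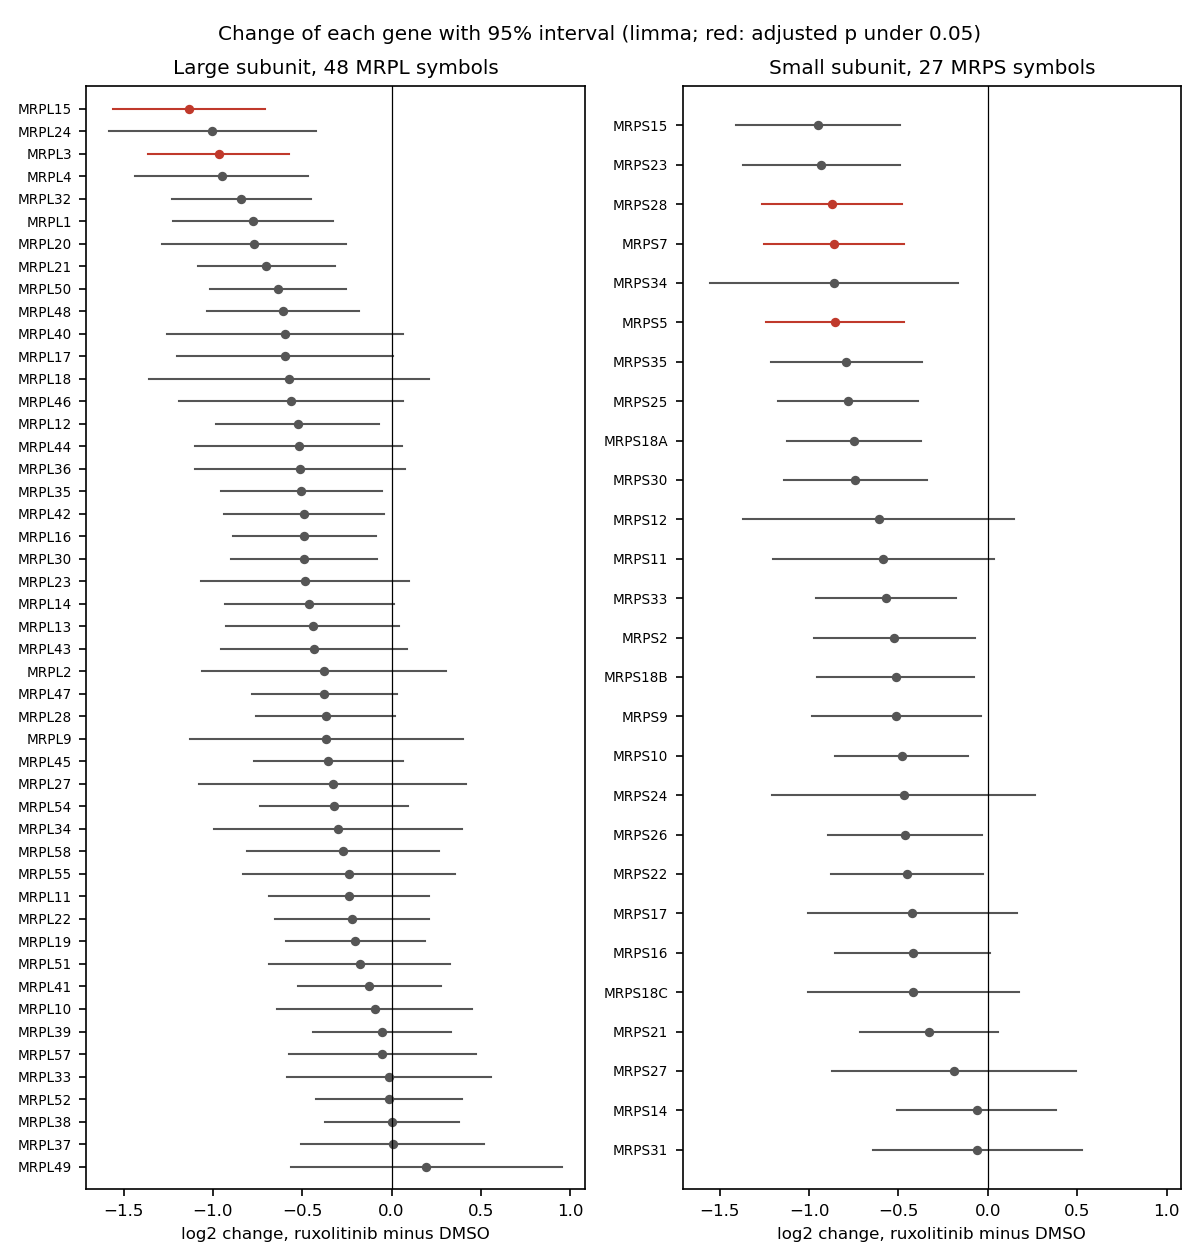
Log2 change (horizontal axis, ruxolitinib minus DMSO) of each of the 75 genes with its 95% interval from limma, MRPL genes left and MRPS genes right; red marks an adjusted p under 0.05. All but MRPL38, MRPL37 and MRPL49 lie left of 0.

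Promoter sequences of 67 of the 75 members were at hand in RefSeq (GRCh38.p14, windows of 300 bases that end 50 bases after the gene's start) and were searched on both strands for motifs of factors known to bind promoters of mitochondrial genes. The letters CCGGAAG, the core bound by ETS factors such as GABPA, stood in 28 member promoters (41.8%), against 14.2% of protein-coding promoters in the same table. The letters AAGATGGC, bound by YY1, stood in 20 (29.9%), against 3.91%. This background took protein-coding promoters at any signal level, whereas all 75 members lay above the median level of all genes. It was not matched for level. No member held overlapping matches of these 2 motifs, and 8 held both. The palindromic motif of the factor NRF1 stood in 8 (11.9%, against 8.57%), the E-box CACGTG bound by MYC and MAX in 6 (8.96%, against 8.88%), and the STAT motif TTCNNNGAA in 7 (10.4%, against 6.97%). The median log2 change was -0.44 for members with the ETS motif and -0.51 for those without it, and -0.50 and -0.46 for those with and without the YY1 motif. For the E-box the medians were -0.29 with and -0.49 without, for NRF1 -0.50 and -0.47, and for the STAT motif -0.49 and -0.47. These differences were not tested. These matches describe the letters in the window and were not tested for binding.

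The sites below are shown because MRPL3, MRPS7 and MRPL32 were among the members with the lowest changes while MRPL38, MRPL37 and MRPL49 had the highest. An ETS and a YY1 site stand in both sets, whereas an E-box stands in MRPL49 and MRPL37 and in none of MRPL3, MRPS7, MRPL32 and MRPL38. These genes were picked by their changes, so the contrast is no test of a link with the E-box. The other members with an E-box were lower: MRPL36 (-0.51), MRPS18C (-0.42), MRPL45 (-0.35) and MRPL22 (-0.22). Each line gives 30 bases on the gene's strand, 5′ to 3′, with the motif in capitals (RefSeq, GRCh38.p14).
MRPL3, ETS motif, chr3:131502985-131503014, minus strand: tgtaaaacgcaCCGGAAGtgggtccggcgg
MRPL38, ETS motif on the other strand, chr17:75905074-75905103, minus strand: tccaacgggcaCTTCCGGagccgggcgtct
MRPS7, YY1 motif, chr17:75261887-75261916, plus strand: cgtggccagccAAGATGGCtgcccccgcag
MRPL32, YY1 motif on the other strand, chr7:42932143-42932172, plus strand: acccgcgctccGCCATCTTtacccgaagag
MRPL38, YY1 motif, chr17:75904860-75904889, minus strand: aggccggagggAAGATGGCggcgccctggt
MRPL49, E-box, chr11:65121933-65121962, plus strand: cggctCACGTGgggaaggccaggcctccca
MRPL37, E-box, chr1:54199985-54200014, plus strand: tgcgcttcacctCACGTGaggattttccag
Counted from the gene's start, the ETS match of MRPL3 began at base -32 and that of MRPL38 at base -208. MRPL3 fell, whereas MRPL38 had a log2 change of 0.00 ± 0.17. Other members paired position and change differently. MRPS31 also had an ETS match at base -32, with a change of -0.06, and MRPS18C had one at base -222, with -0.42. A relation between position and change was not tested. The 250 bases before the start of each follow, with the ETS motif in capitals.
MRPL3, chr3:131502972-131503221, minus strand: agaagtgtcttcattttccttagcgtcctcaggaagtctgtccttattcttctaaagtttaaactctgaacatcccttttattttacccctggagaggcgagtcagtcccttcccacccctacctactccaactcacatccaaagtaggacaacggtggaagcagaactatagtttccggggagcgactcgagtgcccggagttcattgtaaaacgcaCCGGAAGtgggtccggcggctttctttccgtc
MRPL38, chr17:75904885-75905134, minus strand: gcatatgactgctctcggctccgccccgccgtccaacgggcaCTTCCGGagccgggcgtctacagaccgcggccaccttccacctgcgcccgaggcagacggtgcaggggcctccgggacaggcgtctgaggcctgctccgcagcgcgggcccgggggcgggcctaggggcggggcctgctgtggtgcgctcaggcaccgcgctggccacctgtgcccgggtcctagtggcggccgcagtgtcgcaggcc

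The median log2 change was -0.44 for the 48 MRPL genes and -0.52 for the 27 MRPS genes, a difference of 0.09 between medians. That difference grew to 0.24 without DMSO replicate 2 (medians of -0.40 and -0.63) and 0.20 without DMSO replicate 3, and it was not tested. Taken array by array, after each gene's mean was taken off, the distance between the MRPL and MRPS medians had an SD of 0.09 within groups. This array-wise distance is another measure than the difference between median changes, so its SD is not the spread of that difference. Of the MRPL genes 2 passed and 46 did not, 15 (31.3%) were lower at an unadjusted p under 0.05, and 19 (39.6%) had groups that did not overlap. Of the MRPS genes 3 passed and 24 did not, 17 (63.0%) were lower at an unadjusted p under 0.05, and 16 (59.3%) had groups that did not overlap. All 27 MRPS genes had a change below 0, from -0.95 for MRPS15 to -0.06 for MRPS31. With the genes placed by structure the medians were -0.45 for the large and -0.51 for the small subunit.

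Proteins with a bacterial counterpart and proteins found only in mitochondria were also set side by side. In this split MRPS18A and MRPS18B were placed in the second kind, although they are relatives of the bacterial S18 protein. The median was -0.49 for the 45 genes of the first kind, which include all 5 that passed, and -0.46 for the 30 of the second kind. Within the large subunit by structure it was -0.49 for 30 genes with a counterpart and -0.34 for 20 without, and within the small subunit -0.51 for 15 and -0.54 for 10. The 3 genes with a change above 0 were all of the mitochondria-specific kind in the large subunit. These differences were not tested.

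Members are given next by functional site, and differences between them were not tested. In the stalk of the large subunit, where translation factors are recruited, MRPL12, which also binds the mitochondrial RNA polymerase, had a change of -0.53 ± 0.21, with 9.59, 9.25 and 9.71 in DMSO and 9.23, 9.06 and 8.67 with ruxolitinib. Its groups did not overlap but lay close, and it did not pass (adjusted p = 0.416, limma). MRPL10, which anchors MRPL12, had a change of -0.10 ± 0.25, and MRPL11, at the base of the stalk, -0.24 ± 0.20, both with overlapping groups. Around the tunnel exit MRPL24 stood at -1.0, MRPL23 at -0.48, MRPL45, known to tether the particle to the inner membrane, at -0.35, and MRPL22 at -0.22. The further cluster of MRPL23 gave -0.39 ± 0.30. MRPL4, whose bacterial counterpart lines the tunnel, stood at -0.95 ± 0.22, and MRPL2, whose bacterial counterpart lies near the peptidyl transferase centre, at -0.38 ± 0.31. MRPL44, related to ribonuclease III enzymes, stood at -0.52 ± 0.26, and MRPL36 at -0.51 ± 0.27. MRPL58, a peptidyl-tRNA hydrolase taken into the large subunit, stood at -0.27 ± 0.25. None of the genes in this paragraph passed the test.

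In the small subunit, MRPS12, the counterpart of the bacterial decoding centre protein, had a change of -0.61 with an SE of 0.35. Its arrays read 5.30, 5.66 and 6.43 with DMSO and 5.94, 5.01 and 4.62 with ruxolitinib, so that the groups overlapped, and it did not pass (adjusted p = 0.670, limma). MRPS2 stood at -0.52 ± 0.21 and MRPS16 at -0.42 ± 0.20, both without overlap. MRPS22, a mitochondria-specific protein, stood at -0.45 ± 0.19 with overlap. The 3 relatives of the bacterial S18 protein, which occupy different sites in the particle, had changes of -0.75 ± 0.17 for MRPS18A, -0.51 ± 0.20 for MRPS18B and -0.42 ± 0.27 for MRPS18C. MRPS18A read 12.22, 12.30 and 12.03 with DMSO and 11.48, 11.43 and 11.40 with ruxolitinib. MRPS18A and MRPS18B had groups that did not overlap, and those of MRPS18C did. MRPS30, a large subunit protein despite its symbol, was lower by 0.74 ± 0.18 on the log2 scale without overlap and did not pass (adjusted p = 0.101, limma). MRPS34, at -0.86 ± 0.32, was as low as MRPS7 and MRPS5 but had overlapping groups, since ruxolitinib replicate 1 read 9.02 against 8.86 on DMSO replicate 1.

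The members with the highest changes were MRPL49 (0.20 ± 0.35), MRPL37 (0.01 ± 0.23) and MRPL38 (0.00 ± 0.17) in the large subunit, and MRPS31 (-0.06 ± 0.27) and MRPS14 (-0.06 ± 0.20) in the small. MRPL38 read 8.16, 8.02 and 8.18 with DMSO and 8.09, 8.02 and 8.24 with ruxolitinib. Its values hardly spread, and the 95% interval of its change ran from -0.37 to 0.37. MRPL49 read 7.60, 8.30 and 9.15 with DMSO and 8.95, 8.60 and 8.08 with ruxolitinib. Its spread within groups was wider than its change, and the interval ran from -0.56 to 0.95. Ranked by mean signal within each symbol class, the brightest were MRPL42 and MRPL45 among MRPL genes and MRPS21 and MRPS30 among MRPS genes, and the dimmest were MRPL54 and MRPL19 among MRPL genes and MRPS12 and MRPS26 among MRPS genes. MRPL42 had a change of -0.49, MRPS21 of -0.33, MRPL54 of -0.32, MRPL19 of -0.20 and MRPS26 of -0.47, and these did not pass.

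The replicate arrays of a group were unequal for many members. After the mean of each gene over the 6 arrays was taken off, the median of the members was 0.02, 0.23 and 0.42 on DMSO replicates 1 to 3 and -0.02, -0.25 and -0.48 on ruxolitinib replicates 1 to 3. All DMSO medians lay above all ruxolitinib medians, but DMSO replicate 1 and ruxolitinib replicate 1 were close, and 32 of the 75 genes (42.7%, against 52.8% of all genes) were higher on that ruxolitinib array than on that DMSO array. Within the DMSO group replicate 3 was the highest for 64.0% of members and 42.9% of all genes, and within the ruxolitinib group replicate 3 was the lowest for 72.0% and 42.6%. DMSO replicate 3 was the highest of the 6 arrays for 46 members, and ruxolitinib replicate 3 the lowest for 52. The 27 MRPS genes kept the wider distance between the nearest arrays, with 0.20 on DMSO replicate 1 and -0.15 on ruxolitinib replicate 1, against -0.02 and -0.01 for the MRPL genes. For all genes the same medians lay between -0.05 and 0.06.

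**Figure D3:**
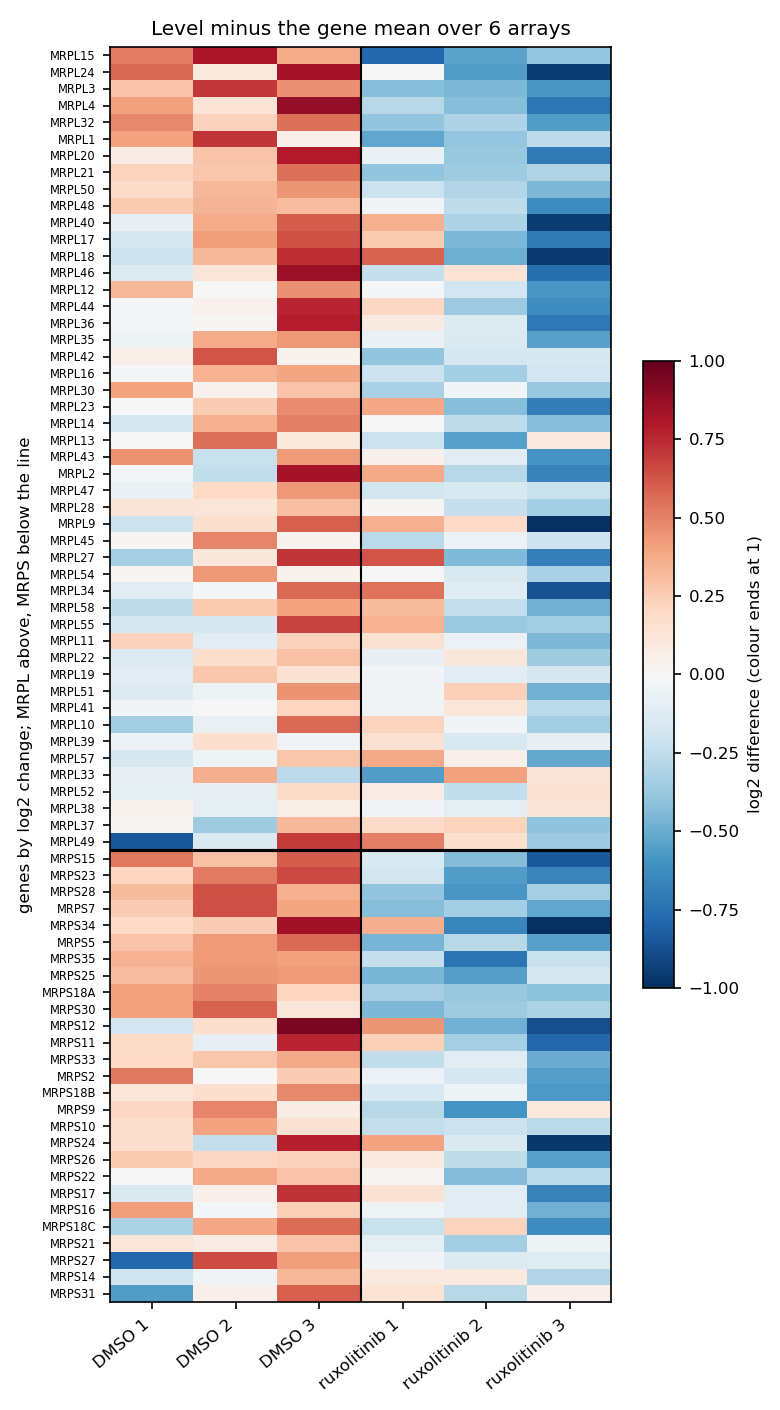
Log2 signal of each member on each array minus its mean over the 6 arrays (colour; red above, blue below, with the scale ending at 1), genes in rows ordered by change with MRPL genes above the thick line and MRPS genes below it. DMSO replicate 3 is the highest array for 46 genes and ruxolitinib replicate 3 the lowest for 52.

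The spread within groups varied among the members. In 16 genes the SD was at most 0.2 in both groups, among them MRPS5, MRPS7, MRPS28, MRPL32, MRPL21 and MRPS10. In 26 genes the SD was above 0.4 in at least 1 group, among them MRPL9, MRPL18, MRPL27, MRPL34, MRPS12 and MRPS24. The median changes were -0.53 and -0.42. MRPL18 showed the second pattern, with 10.32, 10.87 and 11.27 on the DMSO arrays and 11.13, 10.04 and 9.57 on the ruxolitinib arrays. MRPL21 showed the first, with 9.68, 9.74 and 10.02 against 9.07, 9.11 and 9.16. Without DMSO replicate 1 and ruxolitinib replicate 3, the arrays with the highest small RNA signal, the median of the members was -0.46, 72 were below 0 and 1 passed. With the small RNA signal as a covariate the median was -0.54 and 9 members passed (limma).

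**Figure D4:**
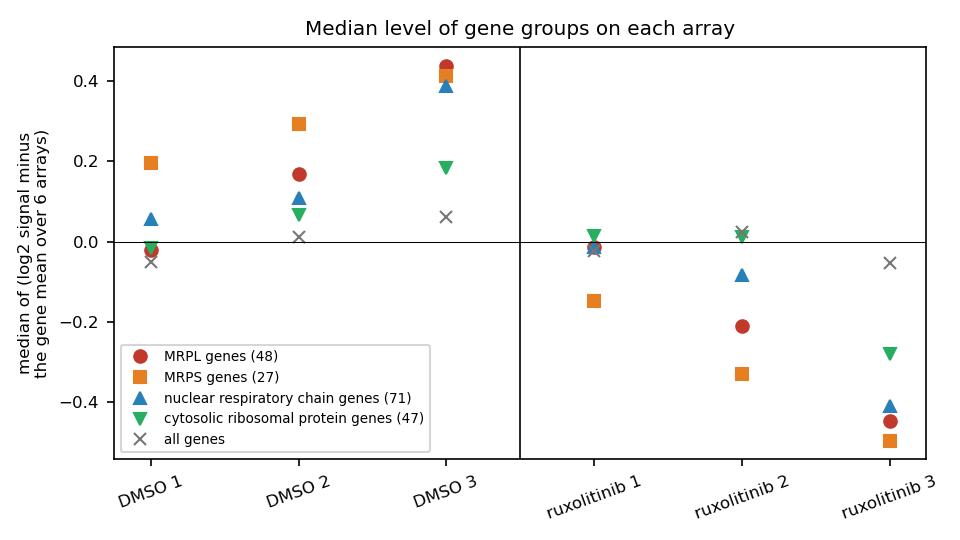
Median over the genes of a group of the log2 signal minus the gene mean over 6 arrays (vertical axis), on each of the 6 arrays (horizontal axis), for MRPL, MRPS, nuclear respiratory chain, cytosolic ribosomal protein and all genes. MRPS medians run from 0.41 on DMSO replicate 3 to -0.50 on ruxolitinib replicate 3, while those of all genes stay between -0.05 and 0.06.

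Other genes of the same pathway were described beside the members. The list of subunits with names given outside the MRP series had 6 measured genes, all below 0 with a median of -0.44, of which 0 passed (limma). At an unadjusted p under 0.05 (limma) 2 were lower (33.3%, against 6.85% of all genes). MRPL57 (-0.05) and MRPL58 (-0.27) of that list are also members here under their present symbols. Of the other 4, DAP3, a GTP-binding protein of the small subunit, stood at -0.66 ± 0.17, short of the threshold (adjusted p = 0.123, limma). DAP3 read 12.56, 12.49 and 12.35 with DMSO and 11.87, 11.66 and 11.87 with ruxolitinib, with no overlap. PTCD3 (-0.47), CHCHD1 (-0.41) and GADD45GIP1 (-0.52), also structural subunits, did not pass either.

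Of 28 measured factors that assemble the particle or modify its RNA, 1 passed, as lower (3.57%). Over all genes 1.04% did so, and 2.91% of protein-coding genes above the median level, so this share lay near the latter. In this list 23 had a change below 0 (82.1%, against 53.4% and 64.6% in these 2 backgrounds), with a median of -0.25. At an unadjusted p under 0.05 (limma) 7 were lower (25%, against 6.85% and 16.1%). In 6 (21.4%, against 9.03% and 18.2%) all ruxolitinib arrays lay below all DMSO arrays. The call was that of C1QBP, an abundant matrix protein, which fell by 0.98 ± 0.17 on the log2 scale, from 15.18, 15.25 and 15.15 to 14.29, 14.35 and 14.02 (adjusted p = 0.0222, limma). No fit with 1 array left out kept the call of C1QBP (adjusted p up to 0.119, limma). The next by adjusted p were ERAL1, a GTPase of small subunit assembly (-0.49), MTG1, a GTPase of large subunit assembly (-0.51), and FASTKD2 (-0.55). Of 15 translation factors and helpers 0 passed (limma), the median was -0.35, and unadjusted p values under 0.05 were seen for 3 lower (20%) and 0 higher genes. The lowest was SLIRP, the partner of the mRNA-stabilizing protein LRPPRC, at -0.89 ± 0.20 (adjusted p = 0.0601, limma), while LRPPRC stood at -0.30, TACO1, an activator of COX1 translation, at -0.64 and MTFMT, which formylates the initiator tRNA, at -0.51. Of 18 mitochondrial aminoacyl-tRNA synthetases and related enzymes 0 passed (limma) and the median was -0.31. In this list 2 lower (11.1%) and 0 higher genes had an unadjusted p under 0.05 (limma), and MARS2 was the lowest at -0.90 ± 0.22. For both lists the background was 6.85% lower over all genes and 16.1% among protein-coding genes above the median level, and these shares lay near the latter. Changes were below 0 for 93.3% of the translation factors and 83.3% of the synthetase list, against 53.4% and 64.6% in the 2 backgrounds. All ruxolitinib arrays lay below all DMSO arrays for 26.7% and 33.3%, against 9.03% and 18.2%. These differences were not tested.

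Of 17 genes of mitochondrial transcription, replication and RNA processing 1 passed, as lower, and the median was -0.53. An unadjusted p under 0.05 (limma) was reached by 10 lower genes (58.8%) and 1 higher gene. Over all genes the shares were 6.85% lower and 2.68% higher, and among protein-coding genes above the median level 16.1% were lower. The gene that passed was TRMT10C, a subunit of mitochondrial RNase P, at -1.10 ± 0.21 (adjusted p = 0.0272, limma), which passed in 1 of the 6 fits with an array left out. TRMT10C read 9.71, 9.93 and 10.30 with DMSO and 8.88, 9.08 and 8.66 with ruxolitinib. TWNK, the mitochondrial helicase, had a change of -1.18 ± 0.27 (adjusted p = 0.0721), TFB2M, a transcription initiation factor, -0.74, POLRMT, the mitochondrial RNA polymerase, -0.78, and TFAM, which packages mitochondrial DNA, -0.47, and these did not pass. MGME1, a mitochondrial nuclease, had the highest change, 0.71 ± 0.25, and did not pass (adjusted p = 0.311, limma).

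Among 11 measured transcriptional regulators of such genes 2 (18.2%) passed as lower and 0 as higher (limma), against 1.04% lower and 0.101% higher over all genes. PPRC1, a coactivator related to PGC-1, fell by 1.24 ± 0.18 on the log2 scale (adjusted p = 0.00628, limma), from 10.29, 10.19 and 10.56 to 9.11, 9.14 and 9.06, and kept its call in all 6 fits that leave out 1 array (adjusted p up to 0.0455). The ruxolitinib arrays of PPRC1 lay far below its DMSO arrays. MYC, known to bind many of these genes, fell from 13.57, 13.68 and 13.82 to 12.63, 11.93 and 11.89, a log2 change of -1.54 ± 0.22 (adjusted p = 0.00682, limma). Without ruxolitinib replicate 2 the adjusted p of MYC was 0.0620. NRF1 (-0.26), GABPA (-0.09), MAX (-0.37) and HCFC1 (-0.47) did not pass, and neither did PPARGC1B (-0.63), which was dim in both groups.

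Gene groups that share a product or a place with the members gave other medians. For 71 nuclear genes of the respiratory chain and ATP synthase the median was -0.36, with 68 below 0, and 0 passed (limma). Of them 25 lower (35.2%) and 0 higher genes had an unadjusted p under 0.05 (limma), against 6.85% lower and 2.68% higher over all genes. Among protein-coding genes above the median level 16.1% were lower. In 28 of the 71 (39.4%) all ruxolitinib arrays lay below all DMSO arrays, against 9.03% of all genes and 18.2% of protein-coding genes above the median level. For 47 cytosolic ribosomal protein genes the median was -0.16, with 44 below 0, and 0 passed (limma), while 1 lower (2.13%) and 0 higher genes had an unadjusted p under 0.05. In 10 of the 47 (21.3%) all ruxolitinib arrays lay below all DMSO arrays, near the 18.2% above, and in 1 they lay above. The medians of the cytosolic list on the single arrays followed the same order as those of the members within the DMSO group, with the lowest value on ruxolitinib replicate 3 in both lists. The differences between these groups and the members were not tested.

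**Figure D5:**
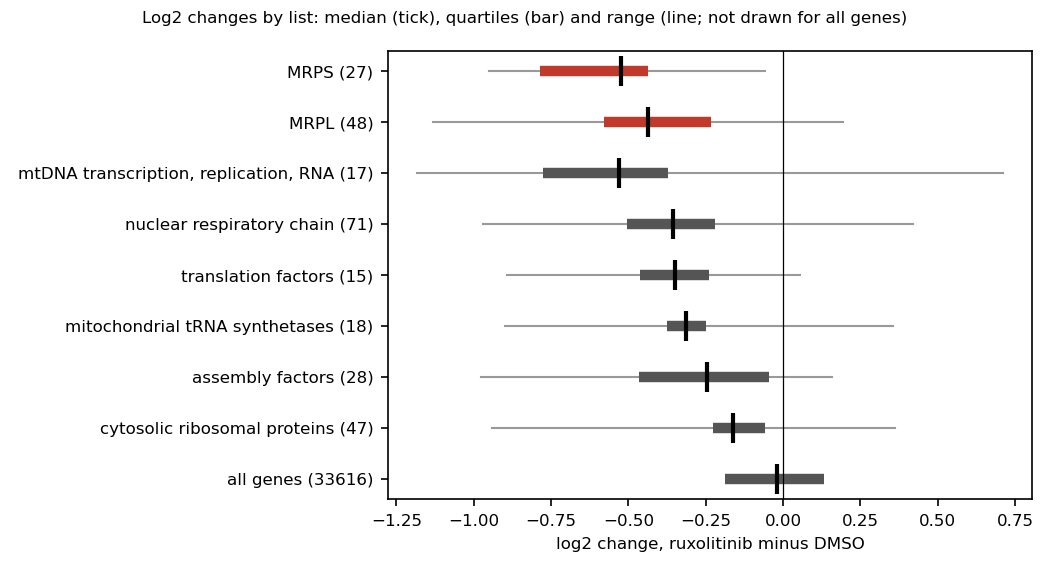
Log2 change (horizontal axis, ruxolitinib minus DMSO) by gene list, with the median as a tick, the quartiles as a bar and the range as a thin line (not drawn for all genes), and the number of genes in brackets. The medians are -0.52 for MRPS, -0.44 for MRPL, -0.36 for nuclear respiratory chain, -0.16 for cytosolic ribosomal protein and -0.02 for all genes.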

How the data were processed

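The deposited table held log2 signals, 1 column per array, of 135750 transcript clusters. Per the submitters' processing notes, RMA (background correction, normalization and summary) and the vendor's Expression Console and Transcriptome Analysis Console were used, without stated roles. The log2 scale was read from the range of 1.99 to 19.9. No detection calls were used, and the sources used here do not give the array build, annotation version or filters. The 36176 clusters with exactly 1 symbol, updated through RefSeq (25516 matched), gave 33616 genes, each represented by its cluster with the highest mean.

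The 2 groups were fitted with lmFit and eBayes of limma 3.58.1 (R 4.3.3) without covariates, p-values were two-sided and adjusted over all genes by Benjamini-Hochberg with a threshold of 0.05, and the fit was tested on simulated data. Lists are described by counts and medians, without a test. Genes were named if they passed, had the lowest or highest change or mean signal in their subunit, belonged to a fixed set of functional sites, or had the smallest adjusted p in another list. MRPL2, MRPL9, MRPL18, MRPL21, MRPL22, MRPL23, MRPL27, MRPL32, MRPL34, MRPL38, MRPL57, MRPL58, MRPS10, MRPS24, MRPS25, MRPS34, MRPS35 and further list members were named after their values were seen. The members and lists were chosen with earlier results of these data known. The labels do not say whether replicates were separate cultures, so p-values measure only the spread between these samples, which may be technical. The number of arrays limits the precision: the median SE of a member's change was 0.21. Alternatives covered the spread model, array weights, genes tested, rows of a gene, scaling, thresholds, replicate numbers, arrays left out and the small RNA signal.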

Additional observations from a re-analysis of the deposited data

How the results depend on the processing

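The median change of the members stayed below 0 and within 1 replicate SD (0.21) of -0.48 in all fits, from -0.60 without ruxolitinib replicate 1 to -0.34 without ruxolitinib replicate 3, with -0.35 after quantile normalization. The count of members past the threshold was 5 and moved readily. It was 2 with an intensity trend and 2 under cyclic loess, 1 after quantile normalization, 0 without moderation of the spread (24 lower at an unadjusted p under 0.05), 8 with array weights, 8 among genes above the median level, 14 among protein-coding genes, 12 at an adjusted p under 0.1, 0 under 0.01, 9 with the small RNA signal as a covariate and 1 without both arrays of high small RNA signal. Leaving out 1 array gave 0 to 2. The fits among fewer genes adjust over fewer tests, and for the others the cause was not tested.

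Over all genes, 384 passed. This became 2 without moderation, 595 among protein-coding genes, 593 at an adjusted p under 0.1, 140 under 0.01, and 101 to 291 with 1 array left out. The difference between the subunit medians ran from 0.061 to 0.24 with 1 array left out and was positive in every fit run. Fits that changed only the moderation, the genes tested, the threshold or the replicate block could not move it from 0.085. The fits with 1 array left out share most of their arrays. The groups share replicate numbers. With the replicate block 0 members (26 lower at an unadjusted p under 0.05) and 122 genes in all passed, but the deviations of same-numbered arrays correlated at -0.21, -0.08 and -0.40, so the numbers were not treated as pairs. None of the 5 members past the threshold, nor C1QBP, TRMT10C, PPRC1 or MYC, changed direction in these fits. Other genes past the threshold were not followed across them.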

Other observations

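2 clusters name a mitochondrial ribosomal protein gene together with another gene and were left out by the rule of 1 symbol. The cluster of SLC5A3 and MRPS6 read 12.48, 12.37 and 12.68 with DMSO and 12.24, 12.40 and 11.86 with ruxolitinib. The cluster of CCDC142 and MRPL53 read 6.56, 7.18 and 7.43 with DMSO and 7.51, 6.91 and 6.73 with ruxolitinib. In both the groups overlapped, and neither was tested.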
